A study of Mus musculus with 30 samples.

Results

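Adipose tissue macrophages (ATMs) from vehicle-treated *Ob/Ob* recipients (Vehicle) were compared with ATMs from WT recipients (WT). The comparison used 6 of the 30 RNA samples of the series, 3 per group, chosen by their labels, and all 17059 genes of the deposited ATM count table. ATMs were F4/80+ cells sorted from visceral fat. *Ob/Ob* mice lack leptin, the adipocyte hormone that restrains feeding, and become obese. The labels give an age of 12–14 weeks and both sexes, with no sex for single samples. The study's text has the recipients slightly younger than this at irradiation. By that text, Vehicle was sampled after 8 more weeks and 30 days of dosing, so the label age is not that at sampling. All recipients were lethally irradiated with 700 and then 400 cGy. They received 500000 CD45.2+ bone marrow (BM) cells of Shp2E76K/+;LysM-Cre+ donors together with as many CD45.1+ Boy/J competitor cells. Shp2E76K is an activating mutation of the phosphatase encoded by *Ptpn11*, and LysM-Cre acts in myeloid cells. From 8 weeks after transplantation, the *Ob/Ob* recipients of this group were given vehicle for 30 days, whereas the labels name no treatment for WT. The labels give no donor for a single sample, and the study's own descriptions of the WT arm differ, so a difference in donor cells between the groups cannot be told apart from the difference in recipient. Mutant, competitor and remaining host cells were sequenced together.

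Adipose tissue holds resident macrophages that lie along vessels, take up debris and present antigen on MHC class II molecules. In obesity, monocytes from the blood enter the tissue and become macrophages that store lipid and release cytokines. Interferons act on macrophages through JAK kinases and STAT factors, which switch on antiviral genes, chemokines for T cells and MHC class I genes. IL-17A acts through NF-kB and C/EBP factors on stromal and epithelial cells and draws neutrophils into tissue.

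The 6 libraries held 24876074 to 30195059 counts on genes. Several facts of the libraries go beside the results below, since the groups did not overlap in any of them. *Xist*, the RNA of the inactive X chromosome, had 14.3, 8.42 and 26.1 normalized counts in WT and 998, 1218 and 1533 in Vehicle. A normalized count is a count scaled to the mean effective library size, that is, library size times a TMM factor for composition. The factors were 1.11 to 1.12 in WT and 0.814 to 0.827 in Vehicle. Percentages of counts are not scaled in this way. *Ddx3y*, a gene of the Y chromosome, had 3767, 3678 and 3760.1 in WT and 537, 515 and 247 in Vehicle. The 4 Y-linked genes measured were all called lower in Vehicle and *Xist* was called higher, although the labels describe groups matched for sex, so sex and group cannot be told apart in these samples. *Adgre1*, which encodes the F4/80 antigen used for sorting, had 6387, 6731 and 7619 in WT and 1002, 1738 and 1471 in Vehicle, and *Ptprc*, which encodes the leukocyte antigen CD45, had 7445, 7797 and 7971 in WT and 4125, 4685 and 3712 in Vehicle. Genes of the epididymis, which lies within the fat pad of males, took 2.56 to 2.59% of counts in WT and 0.000994 to 0.00206% in Vehicle. Of 11 epididymal genes 8 fell in Vehicle and 1 rose, with a median log2 fold change of -5.90 where genes without counts are set to their bound, and all 7 spermatid genes fell. Genes of squamous and mucosal epithelium, grouped into lists after their values were seen, rose in Vehicle in 16 of 19 and 15 of 15 cases (*Krt5*, a keratin of basal epithelium, 20.2, 0 and 7.63 in WT and 1572, 1391 and 1814 in Vehicle; *Reg3g*, an epithelial antibacterial lectin, 42.9, 15.8 and 64.3 in WT and 34633, 31537 and 32627 in Vehicle). Of 4 urothelial genes, also grouped after their values were seen, 3 rose and 1 fell, and together they took 0.0204 to 0.0219% of counts in WT and 0.00899 to 0.00998% in Vehicle. The labels of both groups give C57BL/6J as genotype and the same batch. Every library of a group showed these features, so no result could be recomputed without them, and their part in the results was not tested. P-values of the ATM comparison come from 1 fit of all 15 ATM samples. They measure the spread between samples within groups, with the treated groups included. Whether the 3 samples of a group came from separate mice was not tested. In bulk samples, fewer cells of a type and less RNA per cell cannot be told apart.

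**Figure D1:**
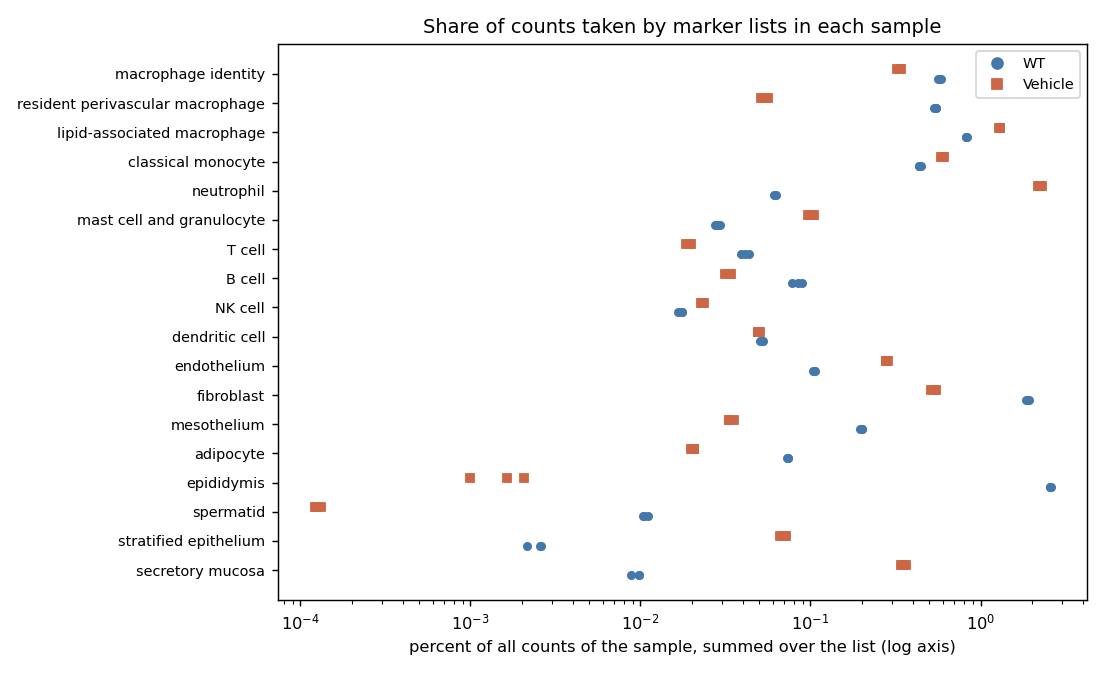
Share of all counts of a sample (percent, log axis) summed over each marker list, with 1 circle per WT sample and 1 square per Vehicle sample. The epididymis list lies at 2.56 to 2.59% in WT and 0.000994 to 0.00206% in Vehicle, and the neutrophil list at 0.0611 to 0.0629% in WT and 2.19 to 2.3% in Vehicle. The dendritic cell list takes similar shares of raw counts in both groups, although its normalized sums were higher in Vehicle.

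In Vehicle, all 20 genes of the type I interferon list and 16 of 17 neutrophil genes rose, and all 10 MHC class II genes and 15 of 17 genes of resident macrophages fell. Of the 17059 genes, 6034 (35.4%) were called, that is, changed at a false discovery rate below 0.05 with a log2 fold change beyond 1. In Vehicle 2125 genes (12.5%) rose and 3909 (22.9%) fell. These shares are the background for the counts of every list below, and a list near them does not stand out from all genes. The median log2 fold change over all genes was -0.21. The samples of the groups did not overlap for 62.9% of all genes, which is the background for any single gene with separate groups. A group with at most 3 counts in every library gave a bound and not a fold change. Reads that fell on several genes were counted for each, and 717 of the called genes have more than 10% of their exonic bases in another gene too, which makes their counts less certain. The same overlap, called or not, applies to *Xist*, *Il27*, *Itgam*, *Mpo*, *Psmb8*, *H2-DMa*, *Erap1*, *Ddit3*, *Hspa1a*, *Ncf1*, *Hexa*, *Myd88*, *Cebpb*, *Akr1b7*, *Krt6a* and *Padi1*, which carry no such remark where they are described. The bound held for WT in 103 of the genes that rose and for Vehicle in 1105 of those that fell.

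**Figure D2:**
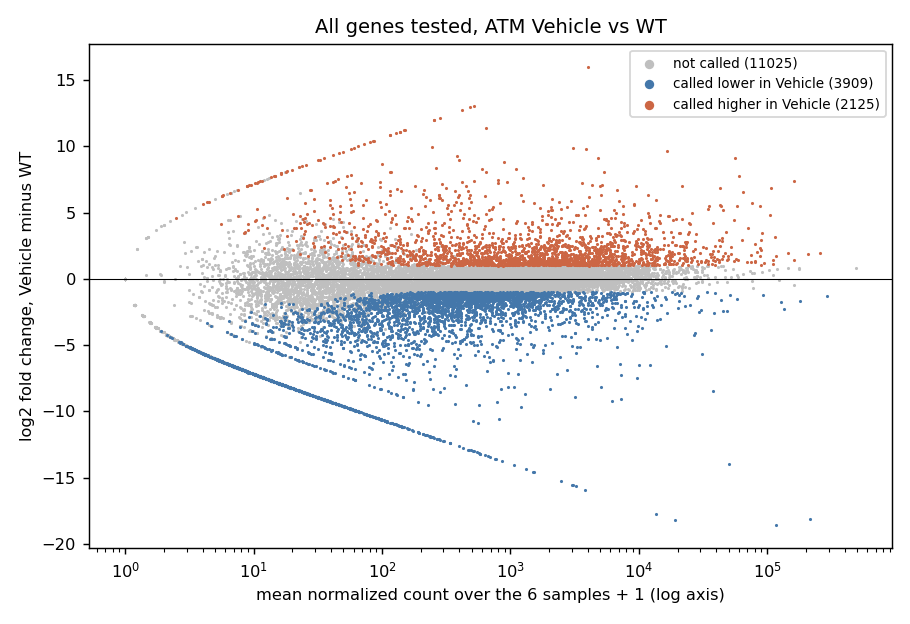
Log2 fold change of Vehicle over WT against the mean normalized count over the 6 samples plus 1 (log axis), with 1 point per gene. Called genes reach from low to high counts in both directions, and the curved edge of points at the lower left holds genes at or near 0 in Vehicle.

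Interferon-stimulated genes rose together. All 20 members of the type I interferon list were called higher in Vehicle, against 12.5% of all genes, with a median log2 fold change of 4.48. *Mx1*, a GTPase that blocks viral ribonucleoproteins, had 90.5, 87.3 and 192 normalized counts in WT and 9599, 10598 and 9572 in Vehicle (log2 fold change 6.33, SE 0.42, adjusted p = 2.8e-09). *Ifit3*, which encodes an antiviral protein with tetratricopeptide repeats, had 1833, 1793 and 1754 in WT and 85088, 83000.5 and 81421 in Vehicle (log2 fold change 5.54, SE 0.09). *Ifit2*, of the same family, had 2564, 2249 and 2532 in WT and 108456, 115153 and 115186 in Vehicle (log2 fold change 5.53, SE 0.12). The groups were far apart for all 3 genes, and the samples of a group lay close together except for *Mx1*, where 1 WT sample lay above the other two. *Irf7*, the transcription factor that amplifies type I interferon production, had 3665, 3778 and 3886 in WT and 174448, 169563 and 174818 in Vehicle (log2 fold change 5.52, SE 0.07). *Isg15*, a ubiquitin-like modifier, had 1653, 1875 and 1825 in WT and 66728, 65172 and 70592 in Vehicle (log2 fold change 5.24, SE 0.08).

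The promoters of the genes with the largest changes in this list are shown because the members moved together, and a binding site for the interferon-activated factor ISGF3 and IRF proteins can be spelled as letters. *Mx1* has no entry in the table used. The sequences are 250 bases before to 50 bases after the start of the gene, from RefSeq on GRCm38.p6, and capitals mark GAAA, any 2 bases and GAAA again, on either strand, where overlapping matches run together.
Ifit3, chr19:34583279-34583578 (plus strand): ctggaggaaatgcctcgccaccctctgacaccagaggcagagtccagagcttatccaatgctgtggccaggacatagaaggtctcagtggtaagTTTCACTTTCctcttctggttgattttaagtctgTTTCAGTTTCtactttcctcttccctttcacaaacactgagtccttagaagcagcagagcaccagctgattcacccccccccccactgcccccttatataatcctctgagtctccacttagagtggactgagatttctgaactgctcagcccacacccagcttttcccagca
Ifit2, chr19:34550444-34550743 (plus strand): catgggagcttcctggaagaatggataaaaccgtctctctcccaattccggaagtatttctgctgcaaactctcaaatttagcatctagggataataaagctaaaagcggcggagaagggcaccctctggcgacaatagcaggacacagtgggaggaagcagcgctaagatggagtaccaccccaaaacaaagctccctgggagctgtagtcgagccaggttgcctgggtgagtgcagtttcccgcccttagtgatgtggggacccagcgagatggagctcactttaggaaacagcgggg
Irf7, chr7:141266375-141266674 (minus strand): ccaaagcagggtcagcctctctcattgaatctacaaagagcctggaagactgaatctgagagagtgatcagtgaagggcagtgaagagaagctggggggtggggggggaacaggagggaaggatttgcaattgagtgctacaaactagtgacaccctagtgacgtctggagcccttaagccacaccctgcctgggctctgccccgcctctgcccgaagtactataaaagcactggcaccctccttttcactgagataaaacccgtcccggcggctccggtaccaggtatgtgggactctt
Isg15, chr4:156200769-156201068 (minus strand): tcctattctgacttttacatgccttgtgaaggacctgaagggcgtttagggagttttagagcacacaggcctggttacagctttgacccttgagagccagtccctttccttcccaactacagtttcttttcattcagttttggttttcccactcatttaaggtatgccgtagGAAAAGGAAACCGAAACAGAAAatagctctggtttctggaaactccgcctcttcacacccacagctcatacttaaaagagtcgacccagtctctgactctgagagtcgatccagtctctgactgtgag
The *Ifit3* promoter held 2 matches, both on the other strand and starting 156 and 122 bases before the gene start. The *Isg15* promoter held 3 matches that overlap at their ends and start 78, 72 and 66 bases before the gene start. These letters are in neither of the 2 promoters of *Ifit2* in the table, of which 1 is shown, and not in that of *Irf7*. Of the 20 list members, 14 were in the table and 9 of these (64.3%) held the motif, compared with 3.78% of the 12790 genes tested that have a promoter there. The share was 7.89% of genes that rose, 2.71% of genes that fell and 3.37% of genes not called. A match is a description of letters and was not tested as a binding site.

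Genes induced by interferon gamma mostly rose as well. Of 15 members, 13 rose and 1 fell, with a median log2 fold change of 3.01. *Cxcl9*, a chemokine for T cells, had 624, 544 and 506 in WT and 113499, 119450.0 and 126023 in Vehicle (chromosome 5, 92321347 to 92328079, GRCm38; log2 fold change 7.75, SE 0.12, adjusted p = 6.1e-17). *Nos2*, the inducible nitric oxide synthase, had 71.5, 23.1 and 76.3 in WT and 3078, 3379 and 2483 in Vehicle (log2 fold change 5.71, SE 0.40), with 1 WT sample well below the other two. The guanylate-binding proteins *Gbp5*, *Gbp2* and *Gbp4*, GTPases of defence inside the cell, had log2 fold changes of 4.47, 4.21 and 3.85. *Socs1*, an inhibitor of interferon signaling, was not called (log2 fold change 0.53, SE 0.11). The exception was *Ciita*, the transactivator of MHC class II genes, which had 669, 989 and 727 in WT and 92.2, 77.8 and 76.3 in Vehicle (log2 fold change -3.27, SE 0.23).

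MHC class I and MHC class II genes went in opposite directions. All 10 class II genes fell, against 22.9% of all genes, with a median log2 fold change of -2.36. *H2-Ab1*, the beta chain of the classical molecule I-A, had 80364, 83303 and 83112 in WT and 15599, 15323 and 15657 in Vehicle (chromosome 17, 34257689 to 34269419, GRCm38; log2 fold change -2.41, SE 0.03, adjusted p = 2.5e-18). *Cd74*, the invariant chain, had 218503, 226162 and 232003 in WT and 45281, 43229 and 47672 in Vehicle (log2 fold change -2.31, SE 0.04) and was named after its values were seen. *H2-Ob*, *H2-DMb2* and *H2-DMa*, which control peptide loading, had log2 fold changes of -2.99, -2.54 and -2.49. B cells and dendritic cells also carry these genes, and their part in the fall was not tested. B cell markers took 0.0781 to 0.0888% of counts in WT and 0.0313 to 0.034% in Vehicle, and 6 of their 9 genes fell. Dendritic cell markers took 0.0506 to 0.0525% and 0.0492 to 0.0508%. Of their 10 genes 2 rose, *Fscn1* (2.57) and *Zbtb46* (1.35), and 3 fell. Of those that fell, *Cd209a* and *Siglech* were at 0 in every Vehicle sample. On the normalized scale the dendritic cell sums were 14992 to 15737 in WT and 19865 to 20377 in Vehicle. Of the 11 class I genes, 10 rose, with a median log2 fold change of 1.92. *Tap1*, which carries peptides into the endoplasmic reticulum, had 3114, 2824 and 2884 in WT and 19799, 20578 and 19484 in Vehicle (log2 fold change 2.76, SE 0.06). The immunoproteasome subunits *Psmb8*, *Psmb10* and *Psmb9* had 2.55, 2.28 and 1.92 on the log2 scale, and the light chain *B2m* 1.98. *Erap1*, a peptide trimmer, was not called (log2 fold change 0.60, SE 0.09).

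**Figure D3:**
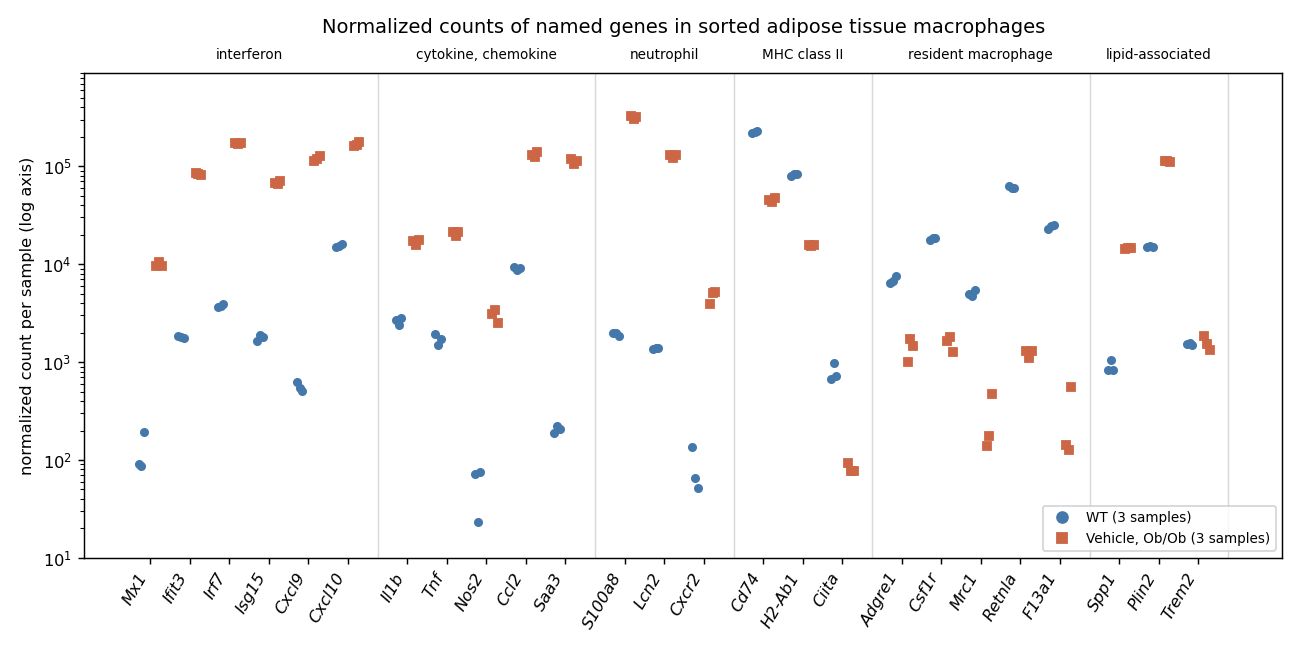
Normalized counts (log axis) of named genes in each of the 6 samples, with circles for WT and squares for Vehicle. The groups overlap for *Trem2* and for no other gene shown.

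Of 14 inflammatory cytokine genes and enzymes, 10 rose and 1 fell, with a median log2 fold change of 2.35. *Il27*, a cytokine that steers T cells, had 0, 6.31 and 20.7 in WT and 444, 390.4 and 433 in Vehicle (log2 fold change 5.52, SE 1.01), and *Il23a*, which maintains IL-17-producing T cells, had 31.0, 8.42 and 18.5 in WT and 358, 279 and 198 in Vehicle (log2 fold change 3.85, SE 1.26). *Il23a* was no longer called without WT replicate 2 or 3 (adjusted p = 0.064 and 0.053, edgeR). *Tnf* had 1952, 1497 and 1737 in WT and 21235, 19207 and 21218 in Vehicle (log2 fold change 3.57, SE 0.11, adjusted p = 1.3e-13), and *Il1b*, which was named after its values were seen, 2684, 2371 and 2807 in WT and 17078, 15737 and 17621 in Vehicle (log2 fold change 2.68, SE 0.07). *Il1rn*, the antagonist of the IL-1 receptor, had 1415, 1543 and 1471 in WT and 20109.8, 20124 and 20291 in Vehicle (log2 fold change 3.77, SE 0.07), so the cytokine and its inhibitor were both higher in every Vehicle sample. *Il18*, *Il12b* and *Il12a* were not called (*Il12a* was called without Vehicle replicate 3 and by DESeq2, at 2.04 and 1.62), and *Ptgs2*, the enzyme of prostaglandin synthesis, fell (log2 fold change -2.03, SE 0.07).

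Chemokines rose in the main, with 17 of 22 higher, 1 lower and a median log2 fold change of 2.01. *Cxcl11*, the third ligand of CXCR3 beside *Cxcl9* and *Cxcl10*, had 4.76, 13.7 and 18.5 in WT and 2226, 2482 and 2702 in Vehicle (log2 fold change 7.61, SE 0.76), although 41.7% of its exonic bases also lie in another gene. *Cxcl10*, named after its values were seen, had 15073, 15434 and 16180.1 in WT and 160001, 163330.0 and 176998 in Vehicle (log2 fold change 3.42, SE 0.06). *Ccl2*, the main attractant of monocytes, had 9411, 8785 and 9162 in WT and 131406, 125826 and 140781 in Vehicle (log2 fold change 3.86, SE 0.06, adjusted p = 3.4e-17). Of the other monocyte and T cell attractants, *Ccl5* had a log2 fold change of 4.13, and of the neutrophil attractants, *Cxcl3* had 3.88. *Ccl24*, an eosinophil chemokine of alternatively activated macrophages, had 1162, 1073 and 1180.0 in WT and 12.0, 79.3 and 21.0 in Vehicle and fell (log2 fold change -4.93, SE 0.47). Among 14 receptors 6 rose and 2 fell, with a median of 0.26. The receptors that rose most were *Fpr1* (32.2, 38.9 and 46.9 in WT and 10796, 10615 and 10381 in Vehicle; log2 fold change 8.06, SE 0.26), *Fpr2* (log2 fold change 5.86) and *Cxcr2* (136, 65.2 and 52.3 in WT and 3889, 5024 and 5215 in Vehicle; log2 fold change 5.81, SE 0.54), which guide neutrophils to formyl peptides and CXC chemokines. *Ccr2*, the receptor of *Ccl2* on monocytes, had 1697, 1730.5 and 2064 in WT and 271, 363 and 325 in Vehicle and fell (log2 fold change -2.52, SE 0.13), and *Ccr3*, the eosinophil receptor, fell by 1.73 on the log2 scale.

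Of the leukocyte marker lists, that of neutrophils had the largest median change. Of 17 measured members 16 rose, with a median log2 fold change of 5.48, and the list took 0.0611 to 0.0629% of counts in WT and 2.19 to 2.3% in Vehicle. *S100a8*, a subunit of calprotectin, an abundant complex of neutrophil cytosol, had 1992, 1979.8 and 1848 in WT and 329581, 306939 and 318196 in Vehicle (chromosome 3, 90668978 to 90670035, GRCm38; log2 fold change 7.36, SE 0.05, adjusted p = 2.7e-21). *Ngp*, a protein of secondary granules, had 741, 679.6 and 765 in WT and 85263, 84888 and 84969.5 in Vehicle (log2 fold change 6.87, SE 0.07). *Mmp8*, the neutrophil collagenase, had 199, 67.3 and 169 in WT and 19314, 18604 and 18357 in Vehicle (log2 fold change 7.03, SE 0.31). Each Vehicle sample lay above each WT sample for all 3 genes. Only *Mmp9* of the list was not called (log2 fold change 0.89, SE 0.07). *Mpo* and *Elane*, which code for enzymes of primary granules made by precursors in marrow, had WT means of 82.1 and 31.6 and Vehicle means of 351 and 169. *Ly6g*, a defining marker of mouse neutrophils, was not analysed here. The study's text describes the sort by F4/80 only and does not say whether neutrophils were excluded. The chemokine receptor and IL-17 lists also hold neutrophil genes. The part of the neutrophil share in those lists was not tested.

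Of 14 classical monocyte markers 9 rose and 3 fell, with a median log2 fold change of 1.73. *Ly6c2*, which encodes the Ly6C antigen of inflammatory monocytes, had 1079, 1047 and 1151 in WT and 18582, 17696 and 19019 in Vehicle (log2 fold change 4.08, SE 0.07). *Chil3*, a chitinase-like protein, had 259.6, 371 and 231 in WT and 24218, 22484 and 22866 in Vehicle (log2 fold change 6.33, SE 0.13). *Fn1*, which encodes fibronectin, had 67422, 68851 and 68811 in WT and 4273, 4886 and 4852 in Vehicle and fell (log2 fold change -3.87, SE 0.07), as did *Ccr2* and the integrin gene *Itgb7* (-2.21). The list took 0.435 to 0.449% of counts in WT and 0.588 to 0.608% in Vehicle.

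Genes of IL-17 signaling rose in 14 of 22 cases and fell in none, with a median log2 fold change of 1.56. The largest changes were those of *S100a8* and *S100a9* (6.83), which neutrophils also express, and *Lcn2*, a siderophore-binding protein of neutrophils and epithelium (1348, 1381 and 1400.1 in WT and 130871, 122628 and 131457 in Vehicle; log2 fold change 6.54, SE 0.09). *Mmp13* and *Mmp3*, collagen- and matrix-degrading enzymes, had log2 fold changes of 4.33 and 3.39. The cytokine *Il17a* itself had 29.8, 47.3 and 22.9 in WT and 212, 172 and 278 in Vehicle (log2 fold change 2.72, SE 0.68, adjusted p = 0.003), and *Il17f* had 21.4, 2.10 and 29.4 in WT and 144, 66.0 and 148 in Vehicle. Both had low counts with no overlap between the groups, and *Il17f* was no longer called without WT replicate 2 (adjusted p = 0.051, edgeR). Of the receptor chains, *Il17ra* had a log2 fold change of 1.21 and was called, whereas *Il17rc*, with 0.02, was not, and the adaptors *Traf3ip2* (-0.42) and *Traf6* (0.24) were not called.

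Of 14 regulators of NF-kB 10 rose and none fell, with a median of 1.32. *Nfkbia*, which encodes the inhibitor IkB alpha, had 32188, 31672 and 32373 in WT and 153165, 137678 and 147723 in Vehicle (log2 fold change 2.19, SE 0.04), and *Tnfaip3*, which encodes the feedback inhibitor A20, had a log2 fold change of 1.85. The subunit genes *Relb* and *Rela* were higher (1.56 and 1.18), while *Rel* (-0.11) was not called. In the Toll-like receptor and inflammasome list 10 of 19 rose and 1 fell, with a median of 1.23. *Tlr13*, a sensor of bacterial ribosomal RNA, had 429, 621 and 486 in WT and 5701, 4374 and 5011 in Vehicle (log2 fold change 3.29, SE 0.13), and *Casp4* and *Casp1*, the inflammatory caspases, had 2.56 and 2.11. *Tlr5*, the flagellin receptor, had 222, 252 and 184 in WT and 26.7, 0 and 0 in Vehicle and fell (log2 fold change -4.57, SE 1.04).

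Genes of the resident, perivascular macrophage of fat fell in 15 of 17 cases, against 22.9% of all genes, with a median log2 fold change of -3.09. *Mrc1*, the mannose receptor CD206, had 5008, 4783 and 5434 in WT and 140.3, 178 and 470.0 in Vehicle (log2 fold change -4.28, SE 0.29, adjusted p = 3.4e-09). *F13a1*, coagulation factor XIII, had 22743, 24738 and 25318 in WT and 143, 126 and 557 in Vehicle (log2 fold change -6.48, SE 0.36). For both genes 1 Vehicle sample lay above the other two and still far below WT. The lectin *Cd209f* had a WT mean of 3059.6 and was at 0 in every Vehicle sample, which bounds its change at no less than 711-fold against a floor of 3 counts per library. *Cd209g* was bounded at 235-fold in the same way. *Fcna*, a ficolin of complement activation, had a log2 fold change of -6.45. *Cbr2* was the member not called (log2 fold change -0.60, SE 0.08), and *Ccl8*, a chemokine, was the only one that rose (log2 fold change 1.06, SE 0.07), at 0.99 without Vehicle replicate 1. Fibroblast genes took 1.84 to 1.92% of counts in WT and 0.51 to 0.548% in Vehicle and thus moved with this list, which was not tested further.

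The broad macrophage list was divided, with 5 of 16 genes higher, 5 lower and a median of -0.47. *Csf1r*, the receptor of the growth factor on which macrophages depend, had 17624, 18458 and 18367 in WT and 1659, 1804 and 1274 in Vehicle (log2 fold change -3.52, SE 0.09, adjusted p = 2.2e-14), with 15.1% of its exonic bases also in another gene. *Adgre1* fell by 2.30 on the log2 scale and *Cd163*, the hemoglobin scavenger receptor, fell by 4.27. *Fcgr1*, the high-affinity Fc receptor CD64, had 448, 385 and 409 in WT and 5828, 4893 and 5589 in Vehicle and rose (log2 fold change 3.72, SE 0.11). *Spi1*, which encodes the myeloid factor PU.1, had 1835, 1797 and 1841 in WT and 10405, 10345 and 10446 in Vehicle (log2 fold change 2.51, SE 0.05). *Cd14* (1.83) and *Cd68* (1.01) rose, whereas *C1qb*, *C1qc* and *Itgam* were not called. *Cd68* was close to the limit of a call, with 0.97 on the log2 scale without Vehicle replicate 3. The list took 0.562 to 0.584% of counts in WT and 0.323 to 0.339% in Vehicle.

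Markers of alternative activation split, with 6 of 17 higher and 8 lower (median 0.69). *Retnla*, a secreted product of macrophages under IL-4, had 62282, 60692 and 60581 in WT and 1289, 1101 and 1311 in Vehicle and fell (chromosome 16, 48842551 to 48844461, GRCm38; log2 fold change -5.63, SE 0.07), as did the lectin *Mgl2* (-4.80). *Arg1*, the enzyme that competes with *Nos2* for arginine, had 350.1, 393 and 289 in WT and 1841, 1409 and 1916 in Vehicle and rose (log2 fold change 2.32, SE 0.15). *Chil4* had 0 counts in every WT sample and 8036, 8156 and 8045 normalized counts in Vehicle, at least 2424-fold higher against the same floor. It also belongs to the list of mucosal epithelium, which was grouped after the values were seen. The 15 of 15 genes of that list that rose include *Chil4* itself and *Ltf*, also a neutrophil gene. This count therefore does not show the source of *Chil4*. The cells that express *Chil4* here were not tested. *Il10* (log2 fold change 0.69, SE 0.17) was not called.

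Lipid-associated macrophage genes rose in 10 of 18 cases and fell in 3, with a median of 1.19. *Spp1*, which encodes osteopontin, had 839.6, 1061 and 827 in WT and 14289.5, 14517 and 14551 in Vehicle (log2 fold change 3.99, SE 0.09), with 18.8% of its exonic bases also in another gene. *Plin2*, which coats lipid droplets, had 14903, 15290.0 and 15069 in WT and 113966, 112821 and 111400.0 in Vehicle (chromosome 4, 86648386 to 86670060, GRCm38; log2 fold change 2.90, SE 0.03, adjusted p = 1.6e-19). *Fabp4*, a fatty acid chaperone, and *Lgals3*, a lectin, had log2 fold changes of 2.01 and 1.94. *Trem2*, the lipid receptor that defines this state, had 1547, 1574 and 1492 in WT and 1866, 1537 and 1341 in Vehicle, with groups that overlapped, and was not called (log2 fold change 0.04, SE 0.08, adjusted p = 0.69). *Apoe* (-1.52) and *Itgax*, which encodes CD11c (-1.53), fell.

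In the list of glycolysis and hypoxia, which holds mostly genes of glycolysis and a few of the response to low oxygen, 12 of 21 genes rose and none fell (median 1.15). *Slc2a1*, the glucose transporter GLUT1, had 2868, 3082 and 3118 in WT and 18181, 19079 and 17864 in Vehicle (log2 fold change 2.60, SE 0.09), and *Hk3*, a hexokinase of myeloid cells, and *Pfkfb3*, which raises the activator of phosphofructokinase, had 2.42 and 2.07. Fatty acid oxidation went the other way, with 6 of 15 genes lower and 1 higher (median -0.73). *Hadh* and *Acaa2*, enzymes of the beta-oxidation cycle, had log2 fold changes of -1.80 and -1.60, and *Cpt1a*, the gate of fatty acid entry into mitochondria, was not called (log2 fold change -0.76, SE 0.10). In lipid and sterol synthesis 6 of 17 fell and 1 rose (median -0.36). The desaturases *Fads2* (5855, 6072 and 6034 in WT and 291, 317 and 443 in Vehicle; log2 fold change -4.10, SE 0.18), *Fads1* (-3.40), *Scd2* (-3.25) and *Scd1* (-2.59) fell. Adipocytes express these desaturases too. Of 12 adipocyte markers 6 fell, 1 rose and 5 were not called. Together they took 0.0725 to 0.0739% of counts in WT and 0.0199 to 0.0207% in Vehicle. The part of adipocytes in the fall of the desaturases was not tested. In the LXR and PPAR list, which holds these receptors and their targets, 6 of 16 genes rose and 2 fell (median 0.78). The targets that rose most were *Plin2* and *Angptl4* (2.43), which encodes an inhibitor of lipoprotein lipase. Of 20 genes of the respiratory chain, 18 were not called, and *Sdha* and *Ndufs1* fell (-1.18 and -1.22).

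**Figure D4:**
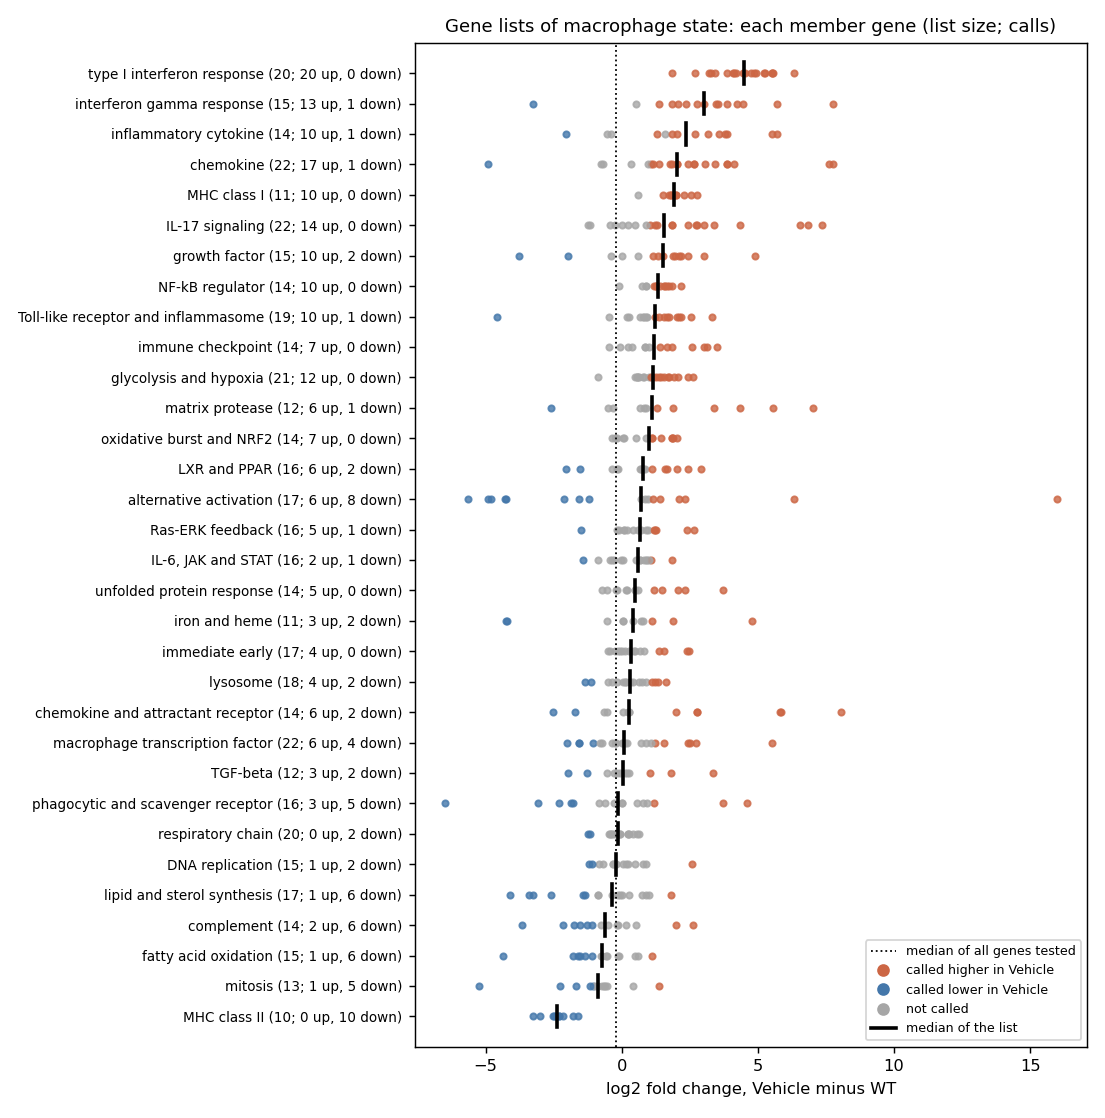
Log2 fold change of Vehicle over WT for each member of the lists of macrophage state, with 1 dot per gene, a bar at the median of the list and a dotted line at the median of all genes. List names carry the number of genes tested and called. Medians run from 4.48 for the type I interferon list to -2.36 for MHC class II, and dots beyond the floor of 3 counts, such as *Chil4*, are fitted values and not fold changes.

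Immune checkpoint genes rose in 7 of 14 cases and none fell (median 1.19). *Cd274*, which encodes PD-L1, had 2819, 3140.1 and 3821 in WT and 28737, 27003 and 28856 in Vehicle (log2 fold change 3.11, SE 0.11, adjusted p = 1.7e-12), with 14.1% of its exonic bases also in another gene. *Lgals9*, a ligand of TIM-3, had 7584, 7963 and 7486 in WT and 87424, 86399.8 and 88630.5 in Vehicle (log2 fold change 3.51, SE 0.04). *Lag3* had a log2 fold change of 3.00, whereas *Cd86* and *Sirpa* were not called. Growth factors rose in 10 of 15 cases and fell in 2 (median 1.51). *Ereg*, a ligand of the EGF receptor, had 19.1, 64.2 and 0 in WT and 744, 849.8 and 925 in Vehicle (log2 fold change 4.90, SE 0.73), and *Csf3*, the granulocyte colony-stimulating factor, had 849, 767 and 776 in WT and 6743, 6078 and 6533 in Vehicle (log2 fold change 3.02, SE 0.13). *Igf1*, a product of resident macrophages, had 7949.7, 7724 and 8425 in WT and 608, 596 and 570.3 in Vehicle and fell (log2 fold change -3.76, SE 0.07). Of 12 matrix proteases and inhibitors 6 rose and 1 fell (median 1.09), among them *Timp1* (5.57) and *Timp2*, which fell (-2.59). In the TGF-beta list 3 of 12 rose and 2 fell (25% and 16.7%, beside 12.5% and 22.9% of all genes, median 0.04).

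Genes of uptake and degradation were mixed. In the phagocytic and scavenger receptor list 3 of 16 rose and 5 fell (median -0.15). These were 18.8% and 31.2%, beside 12.5% and 22.9% of all genes. *Fcgr4*, an activating Fc receptor of monocytes and neutrophils, had 186, 186 and 219 in WT and 4702, 4631 and 5029 in Vehicle (log2 fold change 4.60, SE 0.15), and *Gas6*, a bridge to apoptotic cells, had 25095, 24270.4 and 25519.9 in WT and 2494, 2646 and 3670.0 in Vehicle (log2 fold change -3.09, SE 0.10). Of 18 lysosomal genes 4 rose (22.2%), among them *Npc2* (1.60), a carrier of cholesterol, and 2 fell (11.1%), among them *Hexa* (-1.13), a subunit of hexosaminidase. Complement genes fell in 6 of 14 cases and rose in 2 (median -0.62). *Cfb*, the protease of the alternative pathway, rose by a log2 fold change of 2.61 but 79.5% of its exonic bases also lie in a neighbour. In the iron and heme list 3 of 11 rose and 2 fell (27.3% and 18.2%, median 0.42). *Hpx*, which binds heme, had 14.3, 2.10 and 9.81 in WT and 219, 194 and 311 in Vehicle (log2 fold change 4.78, SE 1.11), and *Fth1*, the ferritin heavy chain, had a log2 fold change of 1.89.

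Shp2 acts upstream of Ras and ERK. In the Ras-ERK list 5 of 16 genes rose and 1 fell (median 0.65). *Ptpn11*, which encodes Shp2, had 2575, 2580.4 and 1703 in WT and 2289.6, 2263 and 1443 in Vehicle and was not called (log2 fold change -0.19, SE 0.18, adjusted p = 0.38). These counts do not separate the mutant allele. *Spry4*, a feedback inhibitor of Ras, had 1599, 1451 and 1293 in WT and 7229.6, 8605 and 7219 in Vehicle (log2 fold change 2.41, SE 0.15), *Fosl1*, an AP-1 subunit, had 2.65, with 57.2% of its exonic bases also in another gene, and *Etv5* fell (-1.52). Of the IL-6, JAK and STAT list 2 of 16 rose and 1 fell (12.5% and 6.25%, beside 12.5% and 22.9% of all genes, median 0.60). *Stat3* had a log2 fold change of 1.09, and *Socs3*, its feedback inhibitor, had 40289, 41724 and 41203 in WT and 16403, 15009 and 14816 in Vehicle and fell (log2 fold change -1.41, SE 0.04). Among 17 immediate early genes, which handling of tissue can induce, 4 rose, led by the heat shock genes *Hspa1a* and *Hspa1b* (2.47 and 2.41), whereas *Egr1*, *Fos* and *Dusp1* were not called (median 0.35). In the unfolded protein response 5 of 14 rose (median 0.48). The members that rose were *Trib3* (205, 185 and 205 in WT and 2123, 3051 and 2576 in Vehicle; log2 fold change 3.70, SE 0.22), *Ddit3*, *Asns*, *Atf4* and *Chac1*, genes of the ATF4 branch, while the chaperone *Hspa5* was not called (0.48). In the oxidative burst and NRF2 list 7 of 14 rose (median 1.00). They included *Slc7a11*, the cystine transporter (2.04), *Sod2* (1.86) and the oxidase subunits *Ncf4* and *Ncf1* (1.86 and 1.83), while *Cybb*, the catalytic subunit, was not called (-0.36).

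Of 22 macrophage transcription factors 6 rose and 4 fell (27.3% and 18.2%, beside 12.5% and 22.9% of all genes, median 0.07). *Cebpe*, a factor of granulocyte precursors, had 16.7, 21.0 and 30.5 in WT and 198, 88.1 and 163 in Vehicle (log2 fold change 2.71, SE 0.51), and *Cebpb* had 11506, 7915 and 2296 in WT and 42252, 36098 and 38708 in Vehicle (log2 fold change 2.43, SE 0.40), with 1 WT sample far below the other two. *Maf*, a factor of resident macrophages, had 637, 590.1 and 706 in WT and 208, 128 and 141 in Vehicle and fell (log2 fold change -2.02, SE 0.19), and *Irf4* fell as well (-1.56). Of 15 replication genes 1 rose and 2 fell (6.67% and 13.3%, median -0.21). Of 13 mitosis genes 1 rose and 5 fell (median -0.87), among them *Bub1*, a spindle checkpoint kinase (105, 67.3 and 114 in WT and 0, 7.34 and 0 in Vehicle; log2 fold change -5.25, SE 0.64), *Cenpf*, a kinetochore protein (-2.28; edgeR adjusted p = 0.0501 in a fit of only the 6 samples), and *Top2a*, a topoisomerase (-1.70).

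The study names 27 genes for these ATMs, of which 15 rose and none fell (median 1.18). The list was chosen on these same samples and is therefore no independent evidence of its direction. Members not covered above included *Mapk13* (168, 179 and 170.0 in WT and 1177, 955 and 681 in Vehicle; log2 fold change 2.44, SE 0.45), a stress-activated kinase, *Tlr2* (1.65), *Ccr1* (2.76) and *Nt5e*, the ectoenzyme CD73 (1.14). The members not called had log2 fold changes below 1, among them *Myd88* (0.83), *Cxcr4* (0.27) and *Cx3cr1* (0.24).

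Markers of other cells in the sort moved with the groups. Lymphocyte genes mostly fell. Of 11 T cell genes 6 fell and 1 rose, with *Cd3e*, a chain of the T cell receptor complex, at 2194, 2350.0 and 2462 in WT and 807, 663 and 894 in Vehicle (log2 fold change -1.57, SE 0.10). Of 8 NK cell genes 4 fell, but *Gzmb*, a granule protease, had 413, 525 and 558 in WT and 6928, 6766 and 7035 in Vehicle and rose (log2 fold change 3.79, SE 0.10). The NK cell list, *Gzmb* included, took 0.0166 to 0.0176% of counts in WT and 0.0227 to 0.0235% in Vehicle. The T cell list took 0.0393 to 0.0434% in WT and 0.0185 to 0.0198% in Vehicle. Mast cell and granulocyte genes rose in 7 of 11 cases and fell in 1, with *Fcer1a*, the IgE receptor, at 98.9, 141 and 216 in WT and 3344, 3395 and 3287 in Vehicle (log2 fold change 4.45, SE 0.21) and *Siglecf*, an eosinophil lectin, lower (-3.68). Endothelial genes rose in 7 of 10 cases and fell in 1. *Cldn5*, a tight junction protein of vessels, had 1658, 1682 and 1637 in WT and 36242, 34283 and 35137 in Vehicle (log2 fold change 4.41, SE 0.08). Fibroblast genes fell in 8 of 10 cases and rose in none, with *Pdgfra*, the marker of their progenitors, at 8451, 7175 and 8462 in WT and 417, 738 and 759 in Vehicle (log2 fold change -3.66, SE 0.18). Of 8 mural cell genes 4 fell, and of 8 mesothelial genes 6 fell, led by *Lrrn4* (-6.87) and *Upk3b* (19256, 20287 and 20237 in WT and 180.3, 232 and 245 in Vehicle; log2 fold change -6.51, SE 0.15). Of 10 genes of peritoneal macrophages 4 rose and 4 fell. In that list *Gata6*, the factor that defines these cells, had 1459, 1239 and 1255 in WT and 438, 473 and 416 in Vehicle and fell (log2 fold change -1.57, SE 0.19), and *Saa3*, an acute-phase protein, had 187, 224 and 208 in WT and 118319, 105108 and 114249 in Vehicle and rose (log2 fold change 9.09, SE 0.09). Adipocyte genes fell in 6 of 12 cases, but *Lep*, the gene mutated in *Ob/Ob* mice, had 120.3, 254 and 348 in WT and 892, 1488 and 733 in Vehicle and rose (log2 fold change 2.11, SE 0.33), and the leptin receptor *Lepr* was not called (log2 fold change 0.91, SE 0.21; 1.09 and called without WT replicate 2). Of 5 platelet genes 1 rose and 1 fell, of 3 erythroid genes 1 rose, of 5 genes of ovary and oviduct 2 rose and 1 fell, of 9 seminal vesicle genes 1 rose and 4 fell, and no gene of 14 from the pancreatic acinus was called. The pancreatic acinus list took at most 0.00146% of counts in any of the 6 samples.

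The 10 genes in each direction with the largest log2 fold changes among those with a mean of at least 100 normalized counts all had at most 3 counts in every library of the other group, so that only bounds can be given. Higher in Vehicle were *Chil4*, *Gp2*, *Aqp4*, *Serpinb11*, *Padi1*, *Lipk*, *Ivl*, *Muc4*, *Krt6a* and *Saa1*. They include genes of keratinized epithelium (*Ivl*, involucrin of the cornified envelope, and *Krt6a*, a keratin) and of mucosa (*Muc4*, a membrane mucin, and *Gp2*, a receptor of intestinal M cells). *Gp2* was at 0 in WT and had 1205, 820.5 and 1076 in Vehicle, at least 310.2-fold higher. Lower in Vehicle were *Serpina1f*, *Akr1b7*, *Pbsn*, *Defb42*, *Spink11*, *Glb1l3*, *Cd209f*, *Crygc*, *Defb43* and *Pnliprp1*. They include *Akr1b7*, an aldo-keto reductase of vas deferens, *Pbsn*, probasin of the male tract, and the defensins *Defb42* and *Defb43*. *Pbsn* had 27024, 26032 and 27845 in WT and 0 in every Vehicle sample, at least 6271-fold lower. Of this group, *Cd209f* alone belongs to a macrophage list.

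The study sampled BM in the same groups, with 3 WT and 3 Vehicle samples, so that changes in ATMs can be set against those in BM. The difference of the log2 fold change between the tissues was tested in 1 fit of 30 samples (limma), for 13076 genes held by both tables. The fit took all samples as independent, and whether ATM and BM samples came from the same mice was not tested. Log2 fold changes of this fit differ slightly from those given above. A difference was called for 3713 genes (28.4%), with 1477 higher and 2236 lower in ATMs. Of the 4110 called genes of the ATM comparison in both tables, 2480 (60.3%) were called for the difference. The ATM change is itself a part of the tested difference. Genes picked for a large ATM change thus exceed the share of all genes by construction, and the 60.3% is no evidence of tissue specificity. The type I interferon genes were high in both tissues, with a median log2 fold change of 4.51 in ATMs and 4.21 in BM, and 5 of 20 members were called for the difference. *Isg15* had 5.27 in ATMs and 5.06 in BM, a difference of 0.21 ± 0.10 (SE, adjusted p = 0.071). The neutrophil genes had medians of 5.51 in ATMs and -0.24 in BM and a called difference for 14 of 17. *S100a8* had 7.39 in ATMs and 0.12 in BM, a difference of 7.27 ± 0.91. Of 10 class II genes 9 were called as lower in ATMs, with medians of -2.34 and -0.54. *Cd74* had -2.29 and -0.36, a difference of -1.93 ± 0.07. Of 20 chemokines 10 were called as lower and 2 as higher in ATMs, with medians of 2.25 in ATMs and 3.48 in BM. *Il1b* rose in ATMs (2.71) and fell in BM (-3.15), a difference of 5.86 ± 0.09. *Csf1r* had -3.51 in ATMs and 0.04 in BM, a difference of -3.55 ± 0.11. These 5 genes were named after their values were seen. *Mmp8*, picked for the size of its difference, had opposite signs in the tissues (7.21 and -0.65), a difference of 7.86 ± 0.36. Its BM means were 41882 normalized counts in WT and 26180.2 in Vehicle.

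**Figure D5:**
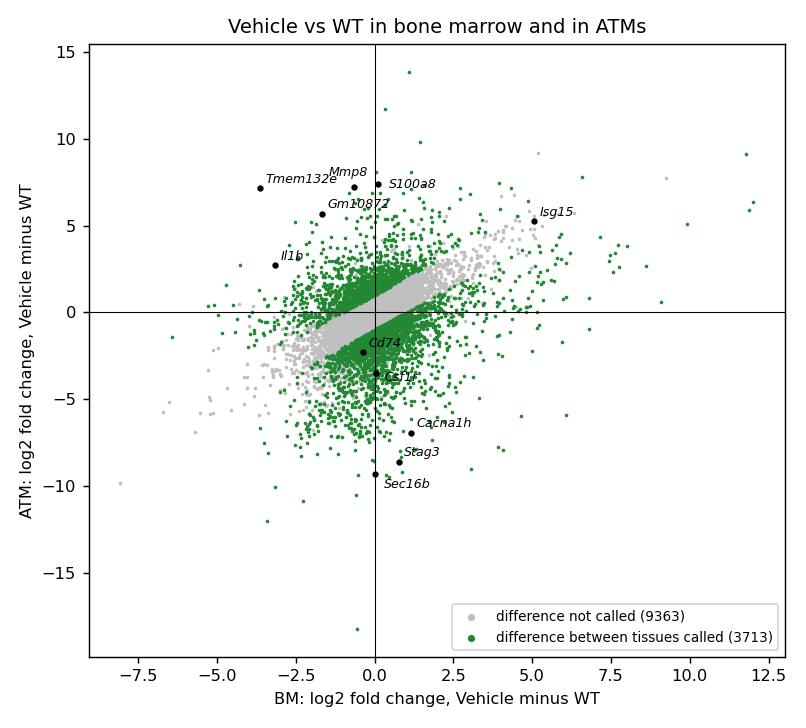
Log2 fold change of Vehicle over WT in ATMs (vertical axis) against BM (horizontal axis) for the 13076 genes in both tables, with called differences in green and named genes in black. *Isg15* lies high on both axes, *S100a8* near 0 on the BM axis, and *Il1b* on opposite sides of 0.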

How the data were processed

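RNA of sorted ATMs and of BM was sequenced as unstranded paired-end libraries. The deposited tables hold raw counts per gene, which the authors made with STAR 2.7.2a on mm10 and featureCounts 2.0.1 without regard to strand. Count tests used edgeR 4.0.16 (quasi-likelihood, TMM scaling, low counts filtered, which removed no gene) over all 15 ATM samples with groups from the labels, in R 4.3.3. Genes were called at a false discovery rate below 0.05 (Benjamini-Hochberg) and a log2 fold change beyond 1 in either direction. Normalized counts were scaled to the mean effective library size, and bounds used a floor of 3 counts per library. The ATM and BM comparisons were set against each other with limma 3.58.1 (voom with quality weights). In simulated data for the ATM comparison (16928 genes), edgeR recovered 79 of 100 genes changed by a log2 fold change of 1.5 and 86 of 100 changed by 3, with 4 false calls. For the tissue difference (13076 genes), limma recovered 83 and 95 of 100, with 6 false calls. Both simulations changed only these genes, as many up as down. In the data 35.4% of genes were called in the ATM comparison and more fell than rose. The simulations therefore do not show the error rate under such a shift. Counts limit precision for genes near 0 only. Annotation was matched by symbol for 16427 genes. Gene lists and the naming rule (10 genes per direction with a mean of at least 100 normalized counts, up to 5 called members per list and direction and 3 not called, the genes named by the study, and defining markers) were chosen with earlier results of these data known. *Psmb9*, *Relb*, *Traf3ip2*, *Elane*, *Mpo*, *Krt5* and the IL-17 ligands and receptors were named outside the rule, after their values were seen. Alternatives were DESeq2 1.42.0, its size factors, other filters and fold limits, only the 6 samples, a replicate block and each sample left out.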

Additional observations from a re-analysis of the deposited data

Results flagged for a closer look

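The change between WT and Vehicle differed between ATMs and BM for each of the following genes, by the test of the difference itself (limma, 30 samples). The genes from *Mmp8* to *Cacna1h* were picked for the largest differences in each direction. They came from genes called in ATMs and for the difference, with fitted changes of opposite sign and at least 100 mean normalized counts in both tissues. Their adjusted p-values are therefore no further evidence. *Mmp8*, the neutrophil collagenase, had a difference of 7.86 ± 0.36 (SE, adjusted p = 1.8e-21) on the log2 scale. *Tmem132e* had 10.79 ± 1.35 (adjusted p = 1.0e-08), with ATM means of 7.55 and 543 and BM means of 259 and 20.6 normalized counts in WT and Vehicle. The predicted gene *Gm10872* had 7.37 ± 1.10 (adjusted p = 4.3e-07), with log2 fold changes of 5.69 in ATMs and -1.68 in BM. *Stag3*, a cohesin subunit of meiosis, had a fitted difference of -9.36 ± 1.71 (adjusted p = 1.5e-05) and *Sec16b* one of -9.29 ± 2.11 (adjusted p = 0.00035). Their log2 fold changes in BM were 0.76 and 0.0035, the second with BM means of 102 and 101 and thus close to 0. Both were at 0 in every ATM Vehicle sample, so that these are fitted values and not fold changes. The WT ATM libraries also held epididymal and spermatid transcripts, and their part in these changes was not tested. *Cacna1h*, a calcium channel subunit, had -8.09 ± 1.48 (adjusted p = 1.5e-05), from an ATM mean of 198 in WT and 2.49 in Vehicle and a log2 fold change of 1.17 in BM. Of the genes named after their values were seen, *S100a8* had 7.27 (adjusted p = 7.6e-07), *Il1b* 5.86 (adjusted p = 1.3e-36), *Csf1r* -3.55 (adjusted p = 6.3e-27) and *Cd74* -1.93 (adjusted p = 3.0e-18). In all, 211 of the 1324 genes called in both tissues had opposite signs, beside 1113 with the same sign.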

How the results depend on the processing

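The count of called genes was 6040 with DESeq2 size factors, 6335 with DESeq2, 5310 of 15663 genes with only the 6 samples and 4130 with a test against a log2 fold change of 1, beside 6034. Leaving out 1 sample gave 5668 to 5990 called genes, with 2015 to 2089 higher and 3640 to 3913 lower. No gene called both ways changed sign under any of these alternatives. A minimum of 10 counts in each of the 6 samples left 12484 genes, of which 1885 were higher and 2142 lower, so that 46.8% of the calls were higher, beside 35.2%, because this filter removes genes that fell to 0. Without the fold limit 9704 genes were called, 4149 of them higher, and 6933 for the difference between tissues. The other alternatives gave 3477 to 3749 for that difference. The median of the phagocytic and scavenger receptor list turned to 0.041 with only the 6 samples, where 14 of its genes were tested. *Cd68*, *Ccl8*, *Nt5e*, *Chac1*, *Stat3*, *Ccr3*, *Il23a* and *Il17f* lost their call in the test against a log2 fold change of 1. That test asks whether a change exceeds 1 and not 0. The log2 fold changes of these genes were, in that order, 1.01, 1.06, 1.14, 1.20, 1.09, -1.73, 3.85 and 2.75. Replicate numbers are shared by the groups but did not pair the samples (correlations of same-numbered samples 0.019, 0.0063 and 0.0303, and not every sample correlated best with its own number). A replicate block gave 5922 called genes, 2072 higher and 3850 lower, and 3702 for the difference between tissues, and changed no call of a named gene. Depth limits genes with few counts in both groups, and genes at 0 in a group have bounds only.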

Other observations

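The other 9 ATM samples came from *Ob/Ob* recipients given beinaglutide (a GLP-1 receptor agonist), anti-IL-17A or both, with 3 samples each. Their levels are given here as medians of normalized counts in that order, for genes on which the comparison of Vehicle with WT turned. *Isg15* had 2250.2, 1300.3 and 2159, so that all 3 groups lay near the WT median of 1825 and not near the Vehicle median of 66728. *S100a8* had 1531, 3375 and 121618, beside 1979.8 in WT and 318196 in Vehicle. *Adgre1* had 13000.1, 28752 and 13309, all above both WT and Vehicle. *Csf1r* had 26422, 33604 and 22234, beside 18367 in WT and 1659 in Vehicle. *Xist* had 0, 0 and 1082, and *Chil4* had 0 in every beinaglutide sample, 4.79 to 31.5 with anti-IL-17A and 341 to 632 with both. The combination group was of these 3 the one that lay closest to Vehicle for *S100a8*, *Xist* and *Chil4*, but not for *Isg15*. The *Ob/Ob* genotype is common to Vehicle and these 3 groups. The causes of these differences were not tested.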
